A study of Mus musculus with 8 samples.

Results

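Axon guidance ligands and receptors steer growing axons. The 53 genes described here are 24 ligands and 29 receptors of 4 families, out of the 38924 genes of the deposited count tables. They are a part of these families, chosen with earlier results of these data known. A separate list holds 19 other ligands and receptors of the same families. The 53 comprise 6 Slit and Robo genes, 7 netrin and Unc5 genes, 18 ephrin and Eph genes, and 22 semaphorin, plexin and neuropilin genes. All 53 were found by gene identifier in all 8 tables. Each library held messenger RNA bound to tagged ribosomes of embryonic mouse neurons (bacTRAP, in which regulatory sequence of a chosen gene drives a ribosomal protein with a tag, so that ribosomes of those cells can be pulled out of mixed tissue). Midbrain dopamine libraries were labelled datL (n = 2), datM (n = 2), Lateral (n = 1) and Medial (n = 1), and hindbrain serotonin libraries were the set they were compared with (n = 2).

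The dopamine libraries came from a line with the tag under the dopamine transporter gene Slc6a3 (JD1640). The series' design text names a second line under the serotonin transporter gene Slc6a4, while the description of the serotonin libraries also names JD1640. Groups were therefore taken from the titles. Embryos were dissected on embryonic day 15, and, per the labels, tissue called day 18 was tissue of day 15 cultured for 3 days. The file headers put the mark E18 on Lateral and Medial only. They place datL and datM in a run folder named for October, and Lateral, Medial and serotonin on lane 8 of another run. The labels give no animal or pool for any replicate and do not spell out what the letters L and M stand for. P-values therefore measure only how far these libraries differ, and that spread may be technical.

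As background, Slits are secreted proteins that repel axons through Robo receptors. Netrin attracts axons through Dcc and repels them through Unc5 receptors. Ephrins are bound to the membrane and act through Eph receptor tyrosine kinases, and semaphorins act through plexins, with neuropilins as co-receptors of most secreted class 3 semaphorins. In the embryonic brain these systems guide dopamine axons from the ventral midbrain towards the forebrain and sort the ascending and descending axons of serotonin neurons.

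Total counts ran from 22417739 to 33216710 in dopamine libraries, against 29470043 and 29157280 in serotonin libraries. Slc6a3 stood at 31.9 to 739.5 CPM (counts per 1000000 counts of the library) in dopamine libraries, against 0.679 and 0.171 CPM in serotonin libraries. The serotonin enzyme gene Tph2 stood at 0 to 41.5 CPM in dopamine libraries, against 2909 and 2189 CPM in serotonin libraries. Some genes of the dopamine neuron marker list were scarce in dopamine libraries. Pitx3 stood at 0 to 4.01 CPM. Slc18a2 stood at 0 to 166 CPM, with 0 counts in datL replicate 1, against 275 and 305 CPM in serotonin libraries. Libraries of 1 group differed widely in the October run: the median absolute log2 difference of the 53 genes, on log2(CPM + 0.5), was 1.4 within the datL pair, 1.15 within the datM pair and 0.84 within the serotonin pair, beside 1.29, 1.10 and 0.43 over all 13806 genes tested.

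Receptors were counted in more libraries than ligands. Of the 29 receptors, 17 (58.6%) reached 1 CPM in all 8 libraries, and of the 24 ligands 4 did (16.7%), beside 42.6% of all genes tested. The 4 ligands were Ntn1 (netrin 1), Efnb3 (ephrin B3), and the transmembrane semaphorins Sema6a and Sema6d. The median receptor level, in CPM per kilobase of exon, was 2.12 to 5.44 in dopamine libraries and 1.93 and 2.28 in serotonin libraries. The median ligand level on the same scale was 0 to 1.22 in dopamine libraries and 1.04 and 1.09 in serotonin libraries. Efnb3 averaged 27.2 CPM per kilobase in dopamine libraries and 55.2 in serotonin libraries, and Nrp1 (neuropilin 1) 23.7 and 10.8. Efnb3 was the highest of the 53 genes per kilobase in 3 of 6 dopamine libraries (datL replicate 1, Lateral and Medial) and in both serotonin libraries. The highest gene was Nrp1 in datL replicate 2, at 28.2 CPM per kilobase, Ntn1 in datM replicate 1, at 57.2, and Epha7 in datM replicate 2, at 46.9. In bulk libraries, fewer cells of a type and less RNA per cell cannot be told apart.

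**Figure D1:**
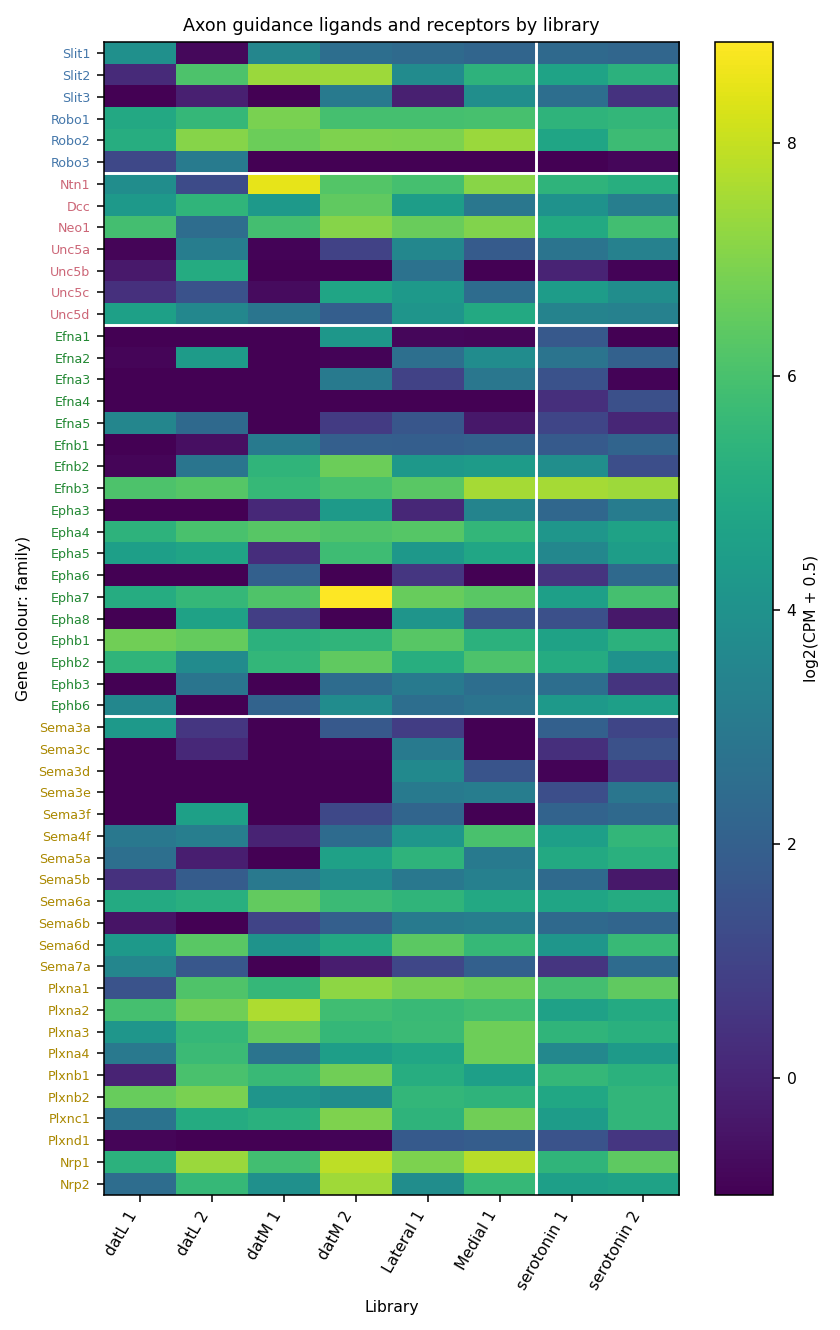
Level of the 53 genes, as log2(CPM + 0.5), in each library (columns), with dopamine libraries left of the white line and serotonin libraries right of it. Gene names are coloured by family (blue Slit and Robo, red netrin and Unc5, green ephrin and Eph, ochre semaphorin and plexin); 21 genes reached 1 CPM in all 8 libraries, and the darkest cells are counts at or near 0.

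Many ligands were at 0 counts in single libraries. In the October run 7 to 17 of the 53 genes had 0 counts in a library, against 2 in Lateral, 7 in Medial and 1 in each serotonin library. As shares of the 53 these were 13.2% to 32.1%, 3.77%, 13.2% and 1.89%, beside 17.6% to 24%, 2.40%, 10.3%, and 3.14% and 4.20% of all genes tested. Sema3d, Sema3e and Efna4 had 0 counts in all 4 datL and datM libraries, which allows up to 0.0299 CPM over these libraries (a limit of 3 counts, for counting error only). They were 5.66% of the 53, beside 6.15% of all genes tested, so such zeros were about as common among the members as among all genes. Sema3d, a secreted semaphorin, stood at 12.4 CPM in Lateral and 2.45 CPM in Medial, against 0.0339 and 1.06 CPM in serotonin libraries. Sema3e, a ligand that binds Plxnd1 without a neuropilin, stood at 7.68 and 8.65 CPM in Lateral and Medial, against 2.10 and 6.79 CPM in serotonin libraries. Plxnd1 itself stood at 0 to 0.0441 CPM in datL and datM and at 2.98 and 3.30 CPM in Lateral and Medial, against 2.38 and 0.960 CPM in serotonin libraries. The run and the E18 mark cannot be told apart among the dopamine libraries.

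The summed level of the 53 genes was 868 and 1603 CPM in datL, 1824 and 2692 CPM in datM, 1622 CPM in Lateral and 2099 CPM in Medial, against 1014 and 1266 CPM in serotonin libraries. It was above both serotonin libraries in 5 of 6 dopamine libraries and below them in datL replicate 1. By family, Slit and Robo genes summed to 82.6 to 396 CPM in dopamine libraries, against 104 and 143 CPM in serotonin libraries. Netrin and Unc5 genes summed to 105 to 445 CPM, against 128 and 135 CPM. Ephrin and Eph genes summed to 338 to 947 CPM, against 357 and 383 CPM. Semaphorin and plexin genes summed to 330.0 to 1054 CPM, against 425 and 606 CPM. The groups overlapped in all 4 families.

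**Figure D2:**
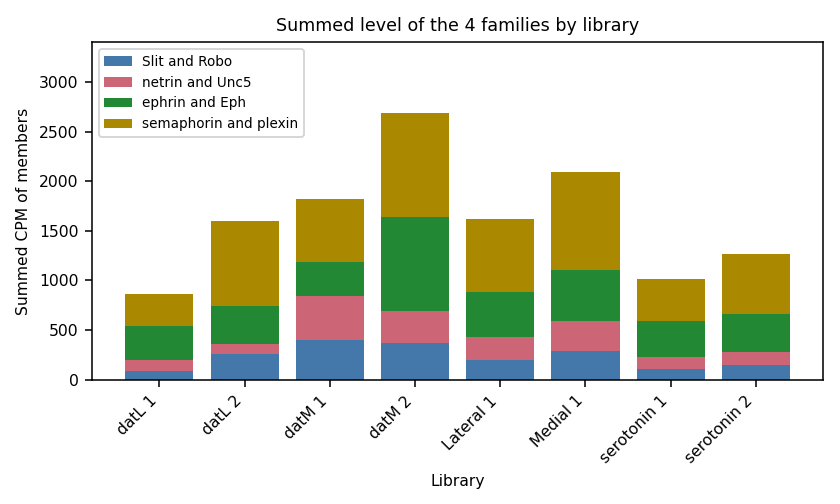
Summed CPM of the members of each family in each library, dopamine libraries first and serotonin libraries last. The bars reach 868 to 2692 CPM in dopamine libraries and 1014 and 1266 CPM in serotonin libraries.

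The first comparison asked how the guidance genes differed between dopamine neurons (6 libraries) and serotonin neurons (2 libraries). The receptors Epha4 and Plxna2 were higher in all 6 dopamine libraries than in both serotonin libraries, and the receptor Ephb6 and the ligand Efna4 were lower. These were 2 of 53 genes in each direction (3.77%), beside 3.06% of all genes tested above and 8.59% below. In edgeR's quasi-likelihood test 0 of the 53 passed an adjusted p of 0.05, as did 0 of all 13806 genes. At an unadjusted p under 0.05 stood 4 of the 53 (7.55%), beside 4.69% of all genes tested. Robo2, Epha4 and Plxna2 had higher values (2.80% of all genes) and Efna4 lower ones (1.90%). Efna4 passed the expression filter only through serotonin libraries, where it was high. Its p and its place in these counts depend on that filter. DESeq2 and limma-voom also placed 0 of the 53 past an adjusted p of 0.05. The median log2 fold change was 0.76 over the 53 and 0.26 over all genes tested, and 39 of the 53 (73.6%) had positive values, beside 58.9%. The 4 at an unadjusted p under 0.05 became 1 without serotonin replicate 1 or serotonin replicate 2, and 2 without Lateral or datM replicate 1. The counts without overlap became 5 above without datL replicate 1, 4 above without datL replicate 2, 4 above and 4 below without Medial, 4 below without Lateral and 6 above without serotonin replicate 2, where all genes stood at 3.72% to 6.11% above and 11.2% to 12.4% below.

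Markers of progenitors and of vascular and blood cells moved with this comparison. The 10 genes of radial glia and progenitors summed to 1658 to 4647 CPM in dopamine libraries, against 908 and 1106 CPM in serotonin libraries. Of the 10, 3 were above without overlap, beside 3.06% of all genes tested above and 8.59% below. The 8 markers of GABA neurons summed to 50.3 to 828 CPM, against 123 and 172 CPM, with 1 above without overlap and 1 below. The 6 floor plate markers summed to 98.8 to 393 CPM, against 101 and 62.5 CPM, with 1 above. None of the 10 progenitor markers was at 0 in a library. Nes, an intermediate filament gene of progenitors, stood at 20.1 to 315 CPM in dopamine libraries, against 14.7 and 19.2 CPM in serotonin libraries. The 8 vascular and blood markers summed to 83.5 to 428 CPM in dopamine libraries, against 24 and 62.9 CPM in serotonin libraries. The globin genes Hbb-bs and Hba-a1 were the 2 of the 8 that were above both serotonin libraries without overlap. Of the 8, 1 was below, Col1a1, at 0.0301 to 0.0892 CPM, against 0.102 and 10.3 CPM. The endothelial marker Cldn5 stood at 0 to 2.05 CPM in dopamine libraries, against 1.29 and 1.34 CPM. The part of these cells in the values below was not tested.

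Among receptors, Robo2, which binds Slits (ENSMUSG00000052516.11, chromosome 16, 73892306 to 74411825, mm10), stood at 35.1 and 134 CPM in datL, 99.4 and 122 CPM in datM, 119 CPM in Lateral and 164 CPM in Medial, against 26.9 and 52.9 CPM in serotonin libraries. It was above both serotonin libraries in 5 of 6 dopamine libraries, and datL replicate 1 fell between them. The log2 fold change was 1.60 (SE 0.65, edgeR unadjusted p = 0.0307, adjusted p = 0.986). Its partner Robo1 stood at 30.4 to 118 CPM, against 42.0 and 45.8 CPM. Robo3, which in mammals serves the crossing of the midline by commissural axons, was counted in datL at 1.72 and 8.13 CPM, at 0 in datM, Lateral and Medial, and at 0 and 0.0686 CPM in serotonin libraries.

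Epha4, a receptor of ephrins of both classes (ENSMUSG00000026235.8, chromosome 1, 77367185 to 77515088, mm10), stood at 41.2 and 64.7 CPM in datL, 78.0 and 69.8 CPM in datM, 77.0 CPM in Lateral and 45.4 CPM in Medial, against 17.8 and 25.0 CPM in serotonin libraries. Its lowest dopamine library was thus above its highest serotonin library. Its means were 62.7 ± 15.8 CPM in dopamine libraries (SD, n = 6) and 21.4 ± 5.03 CPM in serotonin libraries (SD, n = 2), with a log2 fold change of 1.69 (SE 0.72, edgeR unadjusted p = 0.0366, adjusted p = 1.000). The related receptor Epha7 stood at 34.0 to 463 CPM, against 23.2 and 62.1 CPM, and its highest value was that of datM replicate 2. Ephb1 and Ephb2 stood at 39.9 to 104 CPM and 13.1 to 86.9 CPM, against 24.9 and 40.2 CPM and 33.3 and 15.7 CPM. Ephb6, an Eph receptor without kinase activity, ran the other way at 0 to 13.4 CPM in dopamine libraries, against 19.8 and 23.2 CPM in serotonin libraries. Its groups did not overlap, and edgeR gave an unadjusted p = 0.412 with adjusted p = 1.000.

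Plxna2, a receptor of class 6 semaphorins and a partner of neuropilins (ENSMUSG00000026640.6, chromosome 1, 194619829 to 194816869, mm10), stood at 60.5 and 104 CPM in datL, 197 and 56.7 CPM in datM, 50.9 CPM in Lateral and 56.6 CPM in Medial, against 24.6 and 32.0 CPM in serotonin libraries. All 6 dopamine libraries were above both serotonin libraries. The log2 fold change was 1.79 (SE 0.77, edgeR unadjusted p = 0.0394, adjusted p = 1.000). Nrp1 stood at 39.9 to 233 CPM, against 43.4 and 84.3 CPM, and Nrp2 at 5.2 to 174 CPM, against 23.0 and 24.8 CPM. Among the other plexins Plxna1 stood at 2.34 to 144 CPM, against 59.8 and 87.6 CPM, and Plxnb1 at 0.485 to 106 CPM, against 47.0 and 38.8 CPM. These 4 genes overlapped between the groups, and each was lowest in datL replicate 1.

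Among ligands, Efnb3 stood at 69.1 and 75.3 CPM in datL, 48.7 and 62.2 CPM in datM, 80.9 CPM in Lateral and 183 CPM in Medial, against 183 and 168 CPM in serotonin libraries. It was below both serotonin libraries in 5 of 6 dopamine libraries, and Medial fell between them. The log2 fold change was -0.93 (SE 0.51, edgeR unadjusted p = 0.0913, adjusted p = 1.000). Efna4, an ephrin with a lipid anchor (ENSMUSG00000028040.7, chromosome 3, 89333390 to 89338028), had 0 counts in all 6 dopamine libraries and stood at 0.747 and 2.13 CPM in serotonin libraries. It was at least 74.6-fold lower in dopamine libraries against a floor of 3 counts over the group (38.8-fold without serotonin replicate 2 and 110.5-fold without serotonin replicate 1; edgeR unadjusted p = 0.00193, adjusted p = 0.328). That bound covers counting error only, and other ligands went to 0 in some libraries and not in others of the same group. The secreted ligands Slit2 and Ntn1 spread widely between dopamine libraries, at 0.617 to 169 CPM and 1.91 to 359 CPM, against 25.6 and 39.3 CPM and 42.4 and 35.3 CPM in serotonin libraries. Sema4f and Sema5a stood at 0.477 to 65.3 CPM and 0 to 42.0 CPM, against 23.2 and 45.4 CPM and 31.5 and 37.9 CPM.

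**Figure D3:**
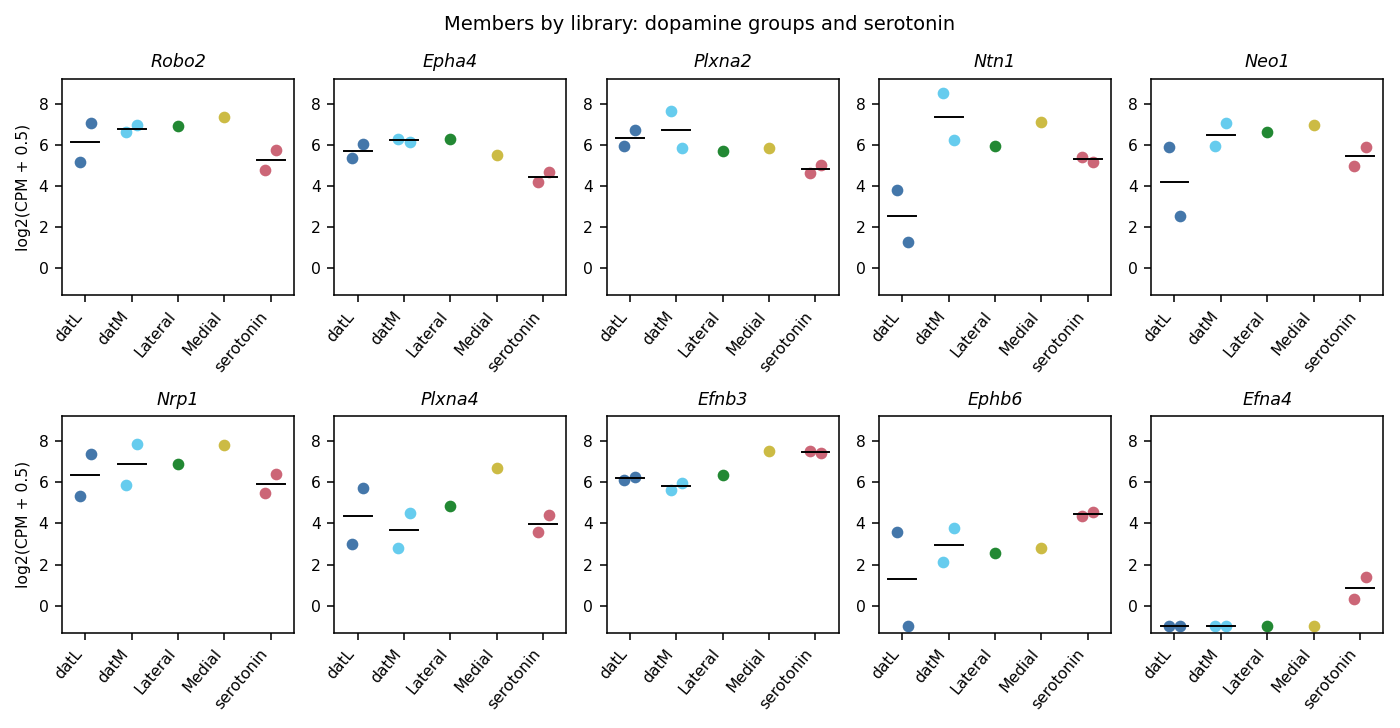
Level of 10 members, as log2(CPM + 0.5), by group; each point is a library and each line the mean of the 2 libraries of a group. Epha4 and Plxna2 were higher in all 6 dopamine libraries than in both serotonin libraries, Ephb6 and Efna4 were lower, and the libraries at the bottom of the Efna4 panel had 0 counts.

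The same question was asked within lane 8, with Lateral and Medial set against serotonin. The E18 mark and neuron type cannot be told apart there. Of the 51 members abundant enough to test, 20 were higher in both dopamine libraries than in both serotonin libraries (39.2%) and 4 were lower (7.84%), beside 25.0% and 24.6% of all 13400 genes tested. The 20 were 14 receptors and 6 ligands, among them Robo1, Robo2, Neo1, all 4 plexin A genes and Nrp1. The 4 lower were Efna4, Ephb6, Sema3a and Plxnb1. In edgeR 0 of the 51 passed an adjusted p of 0.05, beside 0.00746% of all genes above and 0.0149% below. At an unadjusted p under 0.05 stood 7 of the 51 (13.7%), beside 13.8% of all genes tested, so the share of members was near that of all genes. Of the 7, 6 had higher values (7.34% of all genes) and 1, Efna4, lower ones (6.46%). Here as well, Efna4 passed the expression filter only through serotonin libraries. DESeq2 placed Robo2 past the threshold (adjusted p = 0.0142) and limma-voom 0 members. The counts of 20 and 4 became 29 and 14 without Lateral, 32 and 10 without Medial, 23 and 8 without serotonin replicate 1, and 28 and 6 without serotonin replicate 2, where all genes stood at 32.8% to 43.5% above and 32.7% to 43.3% below. The 7 became 0 without serotonin replicate 1 and 13 without Lateral.

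Robo2 stood at 119 and 164 CPM in Lateral and Medial, against 26.9 and 52.9 CPM in serotonin libraries, with a log2 fold change of 1.74 (SE 0.44, edgeR unadjusted p = 0.00743, adjusted p = 0.283). Neo1, a receptor related to Dcc that also binds repulsive guidance molecules (ENSMUSG00000032340.7, chromosome 9, 58874679 to 59036441), stood at 97.8 and 125 CPM, against 31.3 and 58.2 CPM (log2 fold change 1.23, SE 0.42, edgeR unadjusted p = 0.0269, adjusted p = 0.299). Nrp1 stood at 119 and 223 CPM, against 43.4 and 84.3 CPM (log2 fold change 1.33, SE 0.46, edgeR unadjusted p = 0.0284, adjusted p = 0.303). For Epha4 the log2 fold change was 1.45 (SE 0.53, edgeR unadjusted p = 0.0351, adjusted p = 0.323). These 4 receptors did not overlap between the groups. Without Lateral, edgeR called Robo2 (adjusted p = 0.0493), Ntn1 (adjusted p = 0.0308) and Plxna4 (adjusted p = 0.0315) higher and Sema5a (adjusted p = 0.0473) lower in Medial, in a fit that called 2453 genes in all and took the single Medial library to vary like the serotonin libraries.

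Ntn1 (ENSMUSG00000020902.6, chromosome 11, 68209364 to 68400823) stood at 61.7 and 138 CPM in Lateral and Medial, against 42.4 and 35.3 CPM in serotonin libraries, with a log2 fold change of 1.26 (SE 0.47, edgeR unadjusted p = 0.0373, adjusted p = 0.327). Plxna4, a plexin that serves class 3 and class 6 semaphorins, stood at 27.8 and 103 CPM, against 11.5 and 20.4 CPM (log2 fold change 1.92, SE 0.73, edgeR unadjusted p = 0.0402, adjusted p = 0.333). For both, Medial held the higher value. Efna4 had 0 counts in both dopamine libraries (edgeR unadjusted p = 0.0204, adjusted p = 0.290). Ephb6 stood at 5.36 and 6.47 CPM, against 19.8 and 23.2 CPM, with no overlap (log2 fold change -1.95, SE 0.86, edgeR unadjusted p = 0.0643, adjusted p = 0.395). The progenitor markers summed to 1658 and 3601 CPM in Lateral and Medial, against 908 and 1106 CPM in serotonin libraries. Of these 10, 7 were above without overlap. The GABA markers summed to 828 and 418 CPM, against 123 and 172 CPM, with 5 of 8 above and 1 below. The oligodendrocyte lineage markers summed to 142 and 273 CPM, against 21.1 and 32.7 CPM, with 4 of 6 above. The vascular and blood markers summed to 83.5 and 235 CPM, against 24 and 62.9 CPM, with 3 of 8 above and 2 below. The 2 below were Kdr and Col1a1. Of all genes tested 25.0% stood above and 24.6% below without overlap. The part of these cells was not tested.

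**Figure D4:**
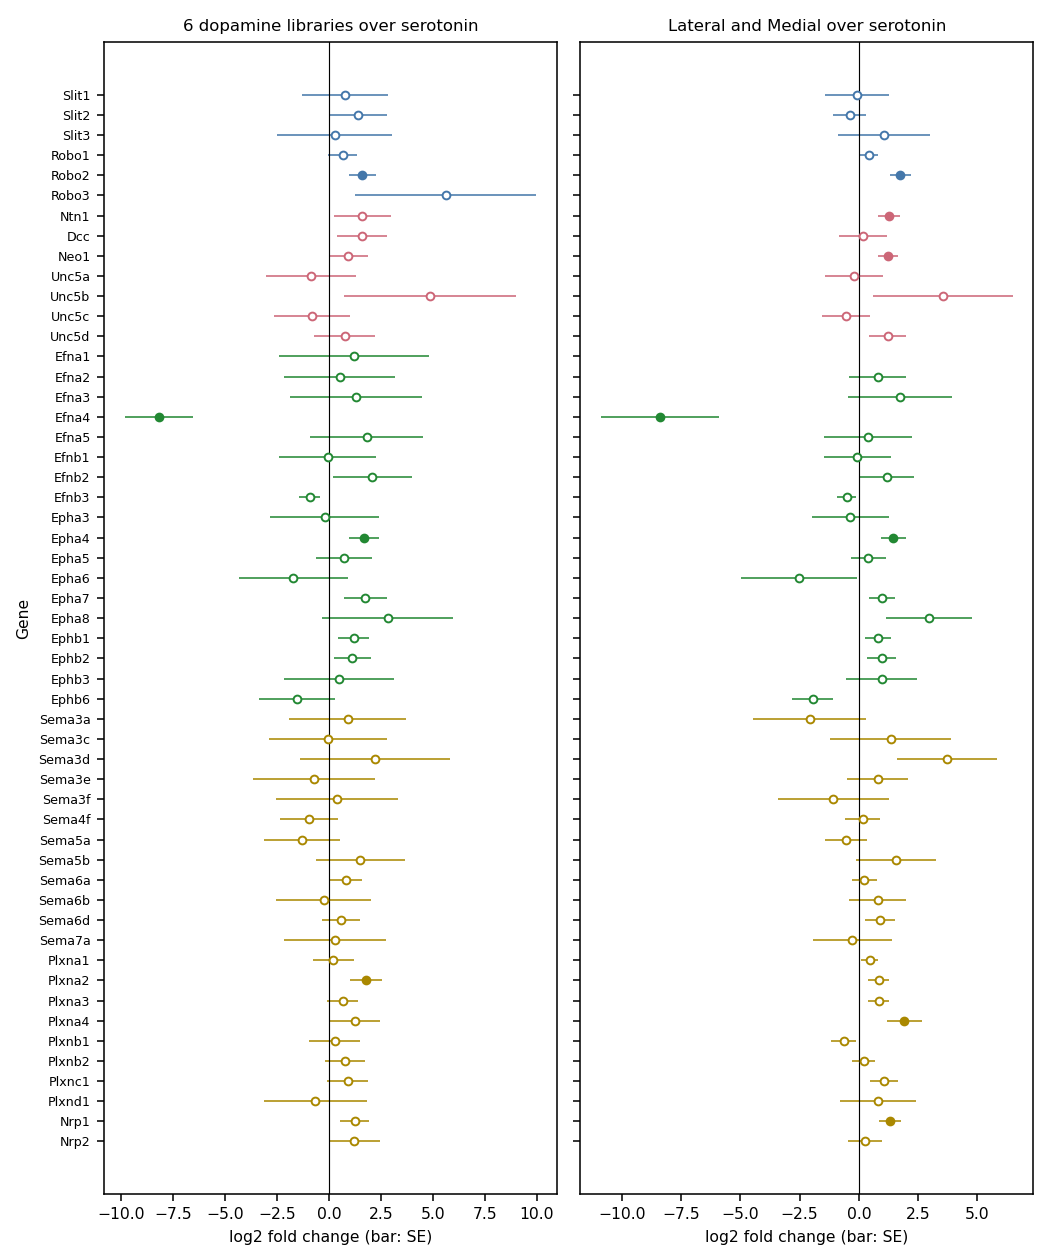
Log2 fold change of each member with its standard error, for 6 dopamine libraries over serotonin (left) and Lateral and Medial over serotonin within lane 8 (right); filled points have an unadjusted edgeR p under 0.05, and 51 of the 53 could be tested at right. Filled points number 4 at left and 7 at right, and 0 in either panel passed an adjusted p of 0.05.

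The second comparison set datL against datM (2 libraries each, in a fit of all 5 groups). The ligands Slit2, Ntn1, Efnb1 and Efnb2 and the receptors Robo1, Epha3 and Epha7 were lower in both datL libraries than in both datM libraries, and the receptors Robo3, Unc5b, Ephb1 and Plxnb2 were higher. In all, 10 of the 53 were higher without overlap (18.9%) and 15 lower (28.3%), beside 11.3% and 13.2% of all 15177 genes tested. In edgeR 0 of the 53 and 0 of all genes passed an adjusted p of 0.05, and the lowest adjusted p among the 53 was 0.597. At an unadjusted p under 0.05 stood 6 of the 53 (11.3%), beside 6.92% of all genes. Of these, 3 had higher values, Robo3, Unc5b and Plxnb2 (3.40% of all genes), and 3 lower ones, Ntn1, Epha3 and Epha7 (3.52%). Robo3 passed the expression filter only through datL, where it was high. Its p and its place in these counts depend on that filter. DESeq2 placed 6 of the 53 past an adjusted p of 0.05 (Ntn1, Unc5b, Efna1, Efna2, Epha3 and Plxnb2) among 1609 genes, and limma-voom 0 of the 53 among 243. The 6 at an unadjusted p under 0.05 became 3 without datM replicate 1 and 2 without either serotonin library. The counts of 10 and 15 became 18 higher without datL replicate 1, 17 higher without datM replicate 2 and 27 lower without datM replicate 1, where all genes stood at 27.8%, 22.4% and 30.5%. The median log2 fold change of the 53 was -0.42 (0.00 over all genes) and 0.59 without datM replicate 2.

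Among ligands, Ntn1 stood at 13.7 and 1.91 CPM in datL, against 359 and 74.4 CPM in datM. Both datL libraries were below every other dopamine library. The log2 fold change was -4.70 (SE 1.30, edgeR unadjusted p = 0.00819, adjusted p = 0.597). For Ntn1 DESeq2 gave an adjusted p = 0.000436, while limma-voom gave an unadjusted p = 0.0949. Slit2 (ENSMUSG00000031558.9, chromosome 5, 47983155 to 48306282) stood at 0.617 and 67.6 CPM in datL, against 167 and 169 CPM in datM (log2 fold change -2.24, SE 1.64, edgeR unadjusted p = 0.213, adjusted p = 0.728). Efnb2 stood at 0.0441 and 6.56 CPM, against 43.4 and 98.2 CPM, and Efnb1 at 0 and 0.153 CPM, against 7.78 and 3.45 CPM. The floor plate markers, a source of Slit and netrin in the embryo, summed to 102 and 98.8 CPM in datL, against 294 and 237 CPM in datM, with Spon1 at 246 CPM in datM replicate 1 and Corin at 114 CPM in datM replicate 2. Shh had 0 counts in both datL libraries and stood at 2.35 and 0 CPM in datM. The part of such cells was not tested.

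Among receptors, Plxnb2, a receptor of class 4 semaphorins (ENSMUSG00000036606.10, chromosome 15, 89155549 to 89171120), stood at 94.3 and 118 CPM in datL, against 17.2 and 13.9 CPM in datM. Means in datL and datM were 106 ± 16.4 and 15.5 ± 2.32 CPM (SD, n = 2 each), with a log2 fold change of 2.85 (SE 0.94, edgeR unadjusted p = 0.0182, adjusted p = 0.597). The groups did not overlap, and Lateral and Medial stood between them at 45.4 and 42.4 CPM. Ephb1 stood at 104 and 92.6 CPM, against 40.3 and 42.9 CPM. Epha7 (ENSMUSG00000028289.6, chromosome 4, 28813131 to 28967499) stood at 34.0 and 46.9 CPM, against 70.0 and 463 CPM, with a log2 fold change of -2.63 (SE 1.02, edgeR unadjusted p = 0.0357, adjusted p = 0.597). Without datM replicate 2, edgeR gave Epha7 an unadjusted p = 0.457 (over all alternatives from 0.00737), so its value rested on that library.

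The receptors Unc5b, Robo3 and Epha3 were at 0 counts in all libraries of a group, where fitted folds depend on the prior count. Unc5b, a netrin receptor for repulsion (chromosome 10, 60762610 to 60831581), was counted at 0.308 and 33.1 CPM in datL and 0 in both datM libraries, at least 286-fold higher in datL and 5.27-fold without datL replicate 2 (edgeR unadjusted p = 0.0370, adjusted p = 0.597). Robo3 (chromosome 9, 37415669 to 37433163) was at least 84.1-fold higher in datL, and 29.4-fold without datL replicate 2 (edgeR unadjusted p = 0.0394, adjusted p = 0.597). Epha3 (chromosome 16, 63543538 to 63864158) had 0 counts in datL and stood at 0.587 and 20.1 CPM in datM, at least 169-fold lower in datL and 9.57-fold without datM replicate 2 (edgeR unadjusted p = 0.0302, adjusted p = 0.597). These bounds used 3 counts over the group at 0 and cover counting error only. The GABA neuron markers summed to 381 and 627 CPM in datL, against 50.3 and 131 CPM in datM, with 6 of 8 higher without overlap. The dopamine neuron markers summed to 475 and 1154 CPM, against 2488 and 1801 CPM, with 6 of 12 lower. Of the 10 progenitor markers 4 were lower in datL without overlap: Nes stood at 20.1 and 26.1 CPM in datL, against 269 and 315 CPM in datM, and Vim at 314 and 203 CPM, against 1405 and 483 CPM. Their sums overlapped, at 3612 and 1863 CPM in datL, against 4647 and 2939 CPM in datM. The part of these cells in the values of datL and datM was not tested.

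Lateral and Medial were single libraries, and their difference was described and not tested. Of the 45 members with at least 100 counts in either library, 9 were at least 2-fold higher in Lateral (20.0%) and 11 at least 2-fold lower (24.4%), beside 25.2% and 24.1% of all 11685 such genes. Epha8 stood at 17.1 CPM (95% exact Poisson interval 15.7 to 18.6) in Lateral and 2.36 CPM (1.77 to 3.09) in Medial. Sema5a stood at 42.0 CPM (39.8 to 44.2) in Lateral and 7.54 CPM (6.44 to 8.76) in Medial. Sema3f, Sema3c and Unc5b had 0 counts in Medial and stood at 4.12, 7.62 and 6.14 CPM in Lateral, at least 30.8-fold, 56.9-fold and 45.9-fold higher against 3 counts. Lower in Lateral were Slit3, at 0.421 CPM (0.230 to 0.707) in Lateral and 14.2 CPM (12.7 to 15.8) in Medial, and Epha3, at 0.572 CPM (0.344 to 0.893) and 10.3 CPM (8.98 to 11.7). Efna3 stood at 1.45 and 7.09 CPM, Plxna4 at 27.8 and 103 CPM, and Sema4f at 17.6 and 65.3 CPM in Lateral and Medial. Intervals cover counting error alone, because the labels name no molecular identifiers and a single library shows no spread between replicates.

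Some members differed in the same direction between datL and datM as between Lateral and Medial, in comparisons that share no library. Of the 53, 12 were lower without overlap in datL than in datM and lower in Lateral than in Medial (22.6%), and 4 were higher in both (7.55%), beside 6.72% and 5.71% of all genes tested. The 12 were Slit2, Robo1, Ntn1, Neo1, Efnb1, Efnb2, Epha3, Ephb2, Sema5b, Sema6b, Plxna3 and Plxnc1, and the 4 were Unc5b, Efna5, Ephb1 and Plxnb2. For Robo1, Efnb1, Efnb2, Sema5b and Sema6b of the 12, the exact Poisson intervals of Lateral and Medial overlapped. The same held for Plxnb2 of the 4. Robo1 stood at 62.0 CPM (59.4 to 64.8) in Lateral and 62.7 CPM (59.5 to 66.1) in Medial. For these genes the intervals did not separate Lateral from Medial. With TMM-adjusted library sizes, which raise Lateral over Medial by 0.17 on the log2 scale, the 12 became 5 (9.43%, beside 5.73%): Slit2, Ntn1, Epha3, Sema5b and Plxnc1. With that scaling 4 were higher in both (beside 6.62%). In CPM the 4 became 10 without datL replicate 1 and 9 without datM replicate 2, where all genes stood at 14.5% and 10.9%. The 12 became 13 to 18 leaving out a datL or datM library (24.5% to 34.0%), where all genes stood at 13.0% to 14.8%. The labels do not say that L and M stand for lateral and medial. Progenitor markers summed to 1658 CPM in Lateral and 3601 CPM in Medial, and floor plate markers to 169 and 393 CPM, and their part was not tested. Members also went opposite ways: Efna2, Efnb3, Sema4f, Sema7a and Unc5d were higher in datL than in datM and lower in Lateral than in Medial, and Epha4, Epha7 and Sema6a did the reverse.

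**Figure D5:**
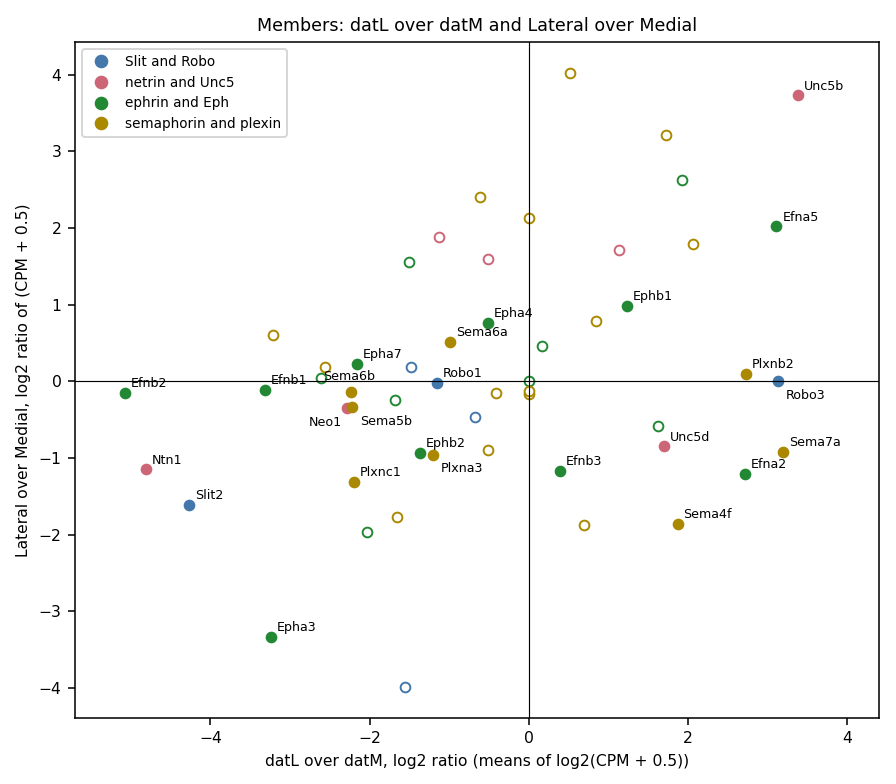
Log2 ratio of datL over datM (x axis, difference of the means of log2(CPM + 0.5)) and of Lateral over Medial (y axis) for each member, coloured by family. Filled, named points had datL and datM libraries that did not overlap; 12 of them were lower on both axes in CPM and 4 higher on both, and with TMM-adjusted library sizes 5 were lower on both.

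The rest of the guidance machinery was read from lists that do not include these genes. Of 19 other ligands and receptors of the same families, 13 could be tested between dopamine and serotonin libraries and 0 had an unadjusted p under 0.05 in edgeR. Of 20 other guidance cues and adhesion receptors, 3 had one (15%, beside 4.69% of all genes tested), each with higher values in dopamine libraries and an adjusted p of 0.872 or above. Chl1, a cell adhesion molecule that acts with neuropilin 1, stood at 372 ± 161 CPM in dopamine libraries (SD, n = 6) and 147 ± 26.6 CPM in serotonin libraries (SD, n = 2). Of 40 intracellular effectors, 3 had higher and 1 lower values at an unadjusted p under 0.05 (10.0%, beside 2.80% and 1.90% of all genes in these directions). Gap43, a growth cone protein, was below both serotonin libraries in 6 of 6 dopamine libraries, at 2604 ± 382 and 5829 ± 345 CPM (log2 fold change -1.03, SE 0.31, edgeR unadjusted p = 0.00616, adjusted p = 0.50). Dpysl3, a cytosolic mediator of semaphorin responses, was above both in 6 of 6, at 2201 ± 531 and 1244 ± 204 CPM (edgeR unadjusted p = 0.0290, adjusted p = 0.954).

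Within lane 8, 4 of the 20 cues and adhesion receptors and 8 of the 40 effectors had an unadjusted p under 0.05 (20.0% each, beside 13.8% of all genes tested), and 0 passed an adjusted p of 0.05 in edgeR. Srgap2, a GTPase activator that binds Robo receptors, stood at 263 ± 29.2 CPM in Lateral and Medial and 78.3 ± 1.60 CPM in serotonin libraries (SD, n = 2 each; edgeR unadjusted p = 0.00101, adjusted p = 0.272). Between datL and datM, 0 of 17 other family members tested, 2 of 20 cues and adhesion receptors (both lower in datL) and 6 of 40 effectors had an unadjusted p under 0.05, beside 6.92% of all genes. Of the 6 effectors 2 had higher and 4 lower values in datL. Without overlap 7 effectors were higher and 8 lower (17.5% and 20.0%), beside 11.3% and 13.2% of all genes. Of the 20 cues and adhesion receptors 1 was higher and 8 lower (5.00% and 40.0%). Of the 17 other family members 1 was higher and 0 lower (5.88% and 0%), unlike the 53. The median log2 fold change of these 17 was 0.33, beside -0.42 over the 53. Of the 17, 0 were lower both in datL than in datM and in Lateral than in Medial. Chl1 averaged 172 ± 15.9 CPM in datL, against 507 ± 11.5 CPM in datM (SD, n = 2 each; edgeR unadjusted p = 0.0119, adjusted p = 0.597). Dock1, an exchange factor for Rac that acts below Dcc, had 0 counts in both datL libraries and stood at 91.3 ± 60.2 CPM in datM (SD, n = 2; edgeR unadjusted p = 0.000745, adjusted p = 0.597). In the other direction, Rnd1, a small GTPase that binds plexins, averaged 53.2 ± 23.3 CPM in datL, against 0.0391 ± 0.00347 CPM in datM (edgeR unadjusted p = 0.000852, adjusted p = 0.597).

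Reads of a few members could not be counted in full. Of the exon bases of Efna5 59.9% lay within another annotated gene model on the same strand, and 14.1% of Efna3, 10.8% of Plxna1 and 10.5% of Efna4 lay within genes on the other strand. The counting did not use strand, so the level of these genes per kilobase is uncertain. For the other 49 members the overlap was 2.35% of exon bases or less.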

How the data were processed

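RNA bound to tagged ribosomes was sequenced in 8 mouse libraries. The deposited files hold raw counts per gene, which the authors made with featureCounts 1.4.3-p1 without strand on the GENCODE vM2 annotation, per the file headers. STAR and mm10 are named in the submitters' processing notes. The deposited files also give each gene's exon length in bases. Symbols were matched by Ensembl identifier for 37607 of 38924 genes (96.6%). The members and gene lists were chosen with earlier results of these data known.

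CPM is a count per 1000000 counts of the library, and levels between genes were compared per kilobase of exon. Total counts were 22417739 to 33216710. Genes passing edgeR's default expression filter were tested with edgeR 4.0.16 (R 4.3.3), TMM scaling and the quasi-likelihood test, with Benjamini-Hochberg adjustment over all genes tested and a threshold of 0.05. Dopamine was tested against serotonin over all 8 libraries and within lane 8, and datL against datM in a fit of 5 groups. Standard errors were derived from the fold change and F statistic. Folds against a group at 0 used a floor of 3 counts. The fits were tested on simulated data. Fold changes and p-values were kept for members with the smallest p in each family and for any with an unadjusted p under 0.05, of which the text gives a part. DESeq2 1.42.0, limma-voom (limma 3.58.1), other scaling and filters, other sample sets, a replicate block and leaving out each library were alternatives. Alternatives on library sets for levels without overlap were added after the data were seen.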

Additional observations from a re-analysis of the deposited data

Results flagged for a closer look

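In 9 of the 53 genes, 1 of the 6 dopamine libraries lay far from the other 5 on log2(CPM + 0.5), by Dixon's test at the 95% level. These were 17.0% of the 53, beside 16.2% of all 13806 genes tested, while the test's nominal rate is about 1 in 20 groups. Slit1 stood at 0.0763 CPM in datL replicate 2. Robo2 stood at 35.1 CPM in datL replicate 1. Neo1 stood at 5.23 CPM and Ephb6 at 0 CPM in datL replicate 2. Plxna1 stood at 2.34 CPM and Plxnb1 at 0.485 CPM in datL replicate 1. Epha5 stood at 0.734 CPM in datM replicate 1. These 7 were the lowest of their 6 libraries. Efna1 was the highest in datM replicate 2, at 18 CPM, and Sema3c the highest in Lateral, at 7.62 CPM.

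For 4 ligands and receptors the difference from serotonin took opposite directions in the dopamine libraries of the 2 runs: Lateral and Medial were above both serotonin libraries, and all 4 datL and datM libraries were below both. They were 7.55% of the 53, beside 1.78% of all genes tested, and 0 of the 53 ran the other way, beside 0.174%. In datL and datM 17.6% to 24% of all genes tested had 0 counts, against 2.40% in Lateral and 10.3% in Medial, and the part of this in the difference was not tested. The means of Lateral and Medial were 7.43 CPM for Sema3d, 8.17 CPM for Sema3e, 8.06 CPM for Sema6b and 3.14 CPM for Plxnd1. Both differences share the serotonin libraries, and the difference between them was not tested.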

How the results depend on the processing

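Between dopamine and serotonin libraries, the 0 genes with an adjusted p under 0.05 became 2 with 5 groups in 1 fit, 2 with datL and datM only, 3 among genes averaging 10 CPM or more, 14 with limma-voom and 124 with DESeq2, and 0 to 1 leaving out a library. The 4 members at an unadjusted p under 0.05 became 1 with 5 groups, 2 with limma-voom, 2 with no filter, and 1 to 5 leaving out a library. Within lane 8, the 3 genes became 1 with limma-voom, 7 among genes averaging 10 CPM or more, 7 with no filter, 787 with DESeq2 and 13 to 2453 leaving out a library. Members with an adjusted p under 0.05 numbered 1 with DESeq2 and 0 to 4 leaving out a library, and the 7 at an unadjusted p became 0 to 13. Between datL and datM, the 0 genes became 1 with Lateral joined to datL and Medial to datM, 243 with limma-voom, 1609 with DESeq2 and 0 to 6 leaving out a library. DESeq2 called 6 members; the 6 at an unadjusted p became 12 with DESeq2, 3 in a fit of datL and datM only, 3 among genes averaging 10 CPM or more, and 2 to 8 leaving out a library. Leaving out a library gave 2 to 6 members above and 2 to 4 below without overlap for dopamine, 23 to 32 and 6 to 14 within lane 8, and 11 to 18 and 17 to 27 for datL. Members higher both in datL than datM and in Lateral than Medial numbered 4 to 10 leaving out a library (7.55% to 18.9%), beside 10.9% to 14.5% of all genes. Those lower in both numbered 13 to 18 (24.5% to 34.0%), beside 13.0% to 14.8% of all genes. With TMM-adjusted library sizes 5 were lower in both (9.43%, beside 5.73%). Signs turned for Robo3 (-0.47) and Unc5b (-0.19) with 5 groups, for Slit3 within lane 8 (-0.17 with limma-voom, -2.89 without Medial to 2.95 without serotonin replicate 1), for Sema3c between datL and datM (-2.48 without datL replicate 2 to 6.23 without datM replicate 2) and for the members' median there (-1.39 without datL replicate 2 to 0.59 without datM replicate 2). With a replicate block, 11 genes and 4 members (unadjusted) were called within lane 8 and 3 members between datL and datM. Same-numbered libraries deviated together with r of 0.0986 (datL and datM), 0.015 (datL and serotonin) and -0.00278 (datM and serotonin) over 15177 genes. With 2 libraries a group, these values cannot show whether same-numbered libraries shared a preparation. The titles also carry other numbers (datL4-1, datL5-2, datM3-1 and datM4-2), and pairing by those was not examined. The cause of the shifts between settings was not tested. Each group held 1 or 2 libraries, and the parts of depth and of spread between libraries in the comparisons were not tested.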
